A study of Mus musculus with 9 samples.

Results

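The 10 integrin subunit genes Itga1, Itga2, Itga4, Itga6, Itgae, Itgal, Itgav, Itgb1, Itgb2 and Itgb7 were described in invariant natural killer T (iNKT) cells of the mouse thymus, in cells labelled wildtype or knock out for Utx, an X-linked histone H3 lysine 27 demethylase encoded by Kdm6a. The members were chosen by gene symbol, as every probe set of the expression array annotated to 1 of these symbols and to no other gene, which gave 27 of 45101 probe sets and 10 of 18193 genes. Expression was measured on 9 arrays, 5 of Utx wildtype and 4 of Utx knock out iNKT cells, each from a separate biological replicate of mice aged 8 to 12 weeks. The titles also name 3 batches, without saying what a batch was. Batch 1 holds WT1 and KO1, batch 2 holds WT2 with KO2, KO3 and KO4, and batch 3 holds the wildtype arrays WT3, WT4 and WT5. The animals were matched for sex and age per the labels. The allele, the Cre line that deleted Utx, the strain, the sex of each animal and the gate of the sort are not given in the sources used here, nor is whether animals were pooled.

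Integrins are receptors made of 1 alpha and 1 beta chain that bind a cell to matrix proteins or to ligands on other cells, and each pair of chains has its own set of ligands. Signals from T cell or chemokine receptors switch integrins from a bent to an extended form through talin and kindlin, which bind the tail of the beta chain. iNKT cells are lymphocytes that read lipid antigens on CD1d, and after leaving the thymus many of them stay in the liver and other organs for long periods, where integrins such as LFA-1 hold them. CD49a, CD103 and LFA-1, encoded in part by Itga1, Itgae and Itgal, are in common use as markers or mediators of residency in tissues.

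Integrins of these groups were mostly lower in Utx knockout iNKT cells. Of the 10 genes, 5 fell: Itga1 (2.75-fold), Itgb7 (2.23-fold), Itgae (2.06-fold), Itgb1 (1.79-fold) and Itgal (1.60-fold). None of the 10 rose at an adjusted p under 0.05, and 8 had an unadjusted p under 0.05, with Itga4 the 1 of them that was higher, while 4470 of the 14524 genes tested had one. The test was limma on the log2 values of 14524 genes, with genotype and batch as factors and 1 probe set for each gene. Over all genes tested, 3.37% fell and 7.88% rose, so that 11.3% were called in either direction, and the median difference was 0.11 (log2) against -0.66 over the 10 integrins. The groups did not overlap for 8 of the 10, with all 4 knockout arrays below all 5 wildtype arrays for 7 genes and above them for 1. Over all genes the knockout arrays lay wholly below the wildtype arrays in 12.7% and wholly above in 22.2%, 35% in either direction. The calls were fragile: leaving out 1 array at a time gave between 0 and 6 called integrins. The count was 0 without KO3 or KO4, 1 without WT1, WT3, WT4, WT5 or KO1, 4 without WT2 and 6 without KO2. In both fits that called 0, 8 integrins had an unadjusted p under 0.05. Of all genes, 5.86% and 7.21% were called without KO3 and KO4, and 11.9% and 12.1% without WT1 and KO1. That share was 7.04%, 7.37% and 6.77% without WT3, WT4 and WT5, 6.64% without WT2 and 14.2% without KO2. A further limit is that a sort gives bulk RNA, in which fewer cells that express a gene and less of its RNA per cell cannot be told apart.

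**Figure D1:**
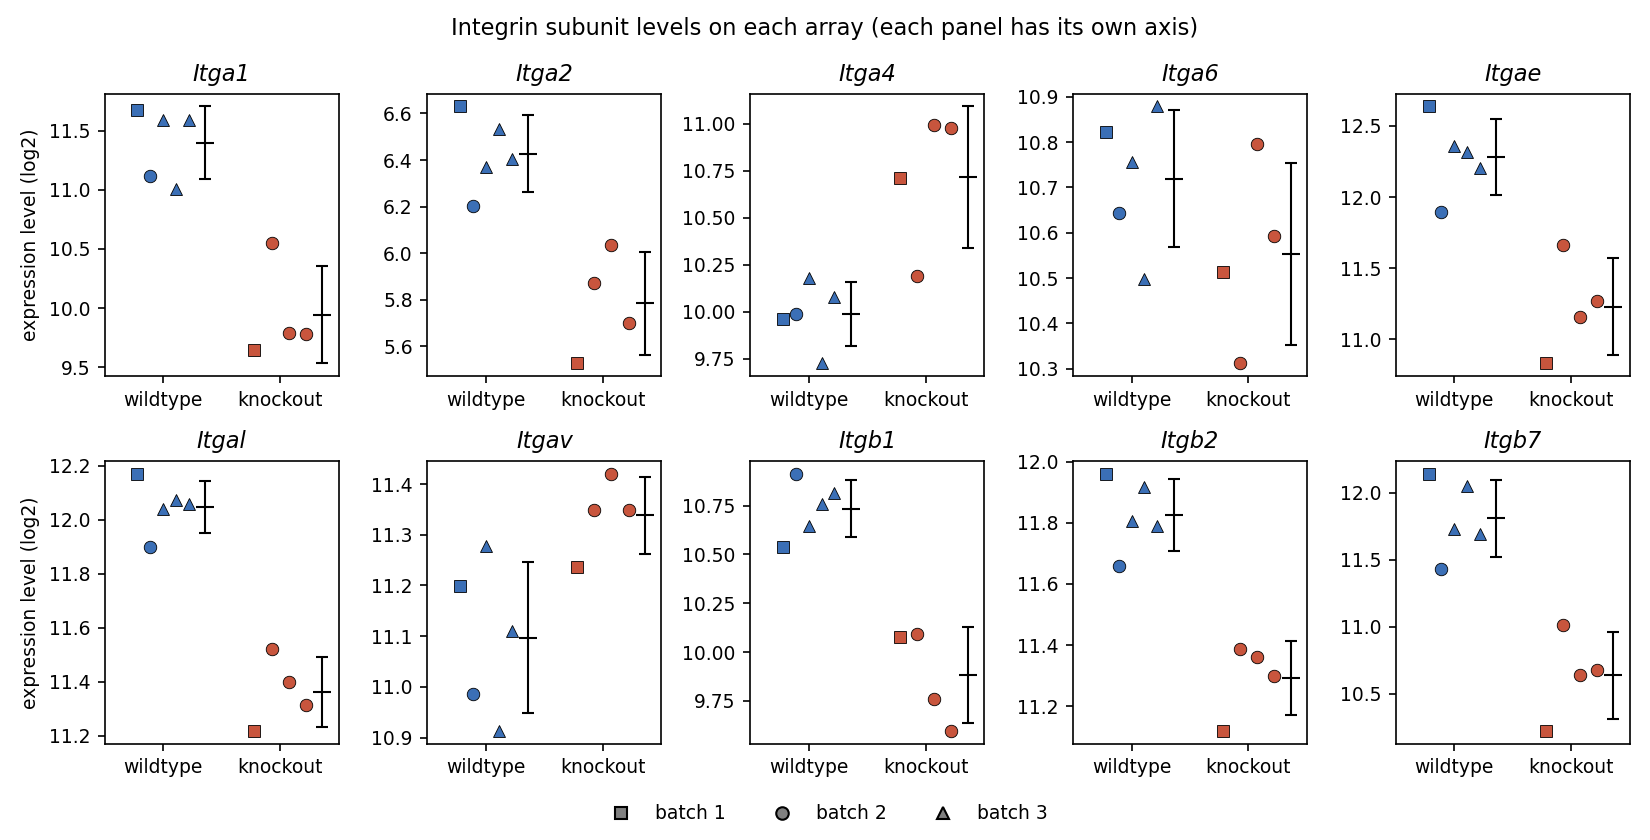
Level of each of the 10 integrin genes on each array (y axis, log2 expression level on the probe set used for the gene), wildtype in blue and knockout in red, with the batch shown by the shape of the point. Bars give the mean and SD of 5 wildtype and 4 knockout arrays, each panel has its own axis, and the groups overlap only for Itga6 and Itgav.

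The levels of Kdm6a do not check the labels of the arrays, since the deleted stretch of the gene, and with it the position of the probes relative to it, is not stated. Its 4 probe sets differed by -0.01, -0.46, -0.23 and 0.52 (log2, brightest first), with adjusted p of 0.129 to 0.977 over all probe sets. The brightest ran from 9.79 to 10.15 on wildtype and from 9.62 to 10.07 on knockout arrays. The medians of the arrays were 5.97 to 6.09 (log2), and their interquartile ranges were 3.45 to 3.84 on wildtype and 3.80 to 4.29 on knockout arrays. Across the 14524 genes, which are not independent replicates, the deviation of WT1 from its group mean correlated with that of KO1 at r = -0.922, and that of WT2 with the mean of KO2 to KO4 at r = -0.914. The deviations of the 4 knockout arrays cancel out, so the latter value is that of WT2 with KO1 with its sign reversed. It is thus no separate observation of batch 2, where WT2 and KO2 correlated at 0.09. In batch 1 the 2 genotypes tended to lie on opposite sides of their group means. The sources used here do not say whether the authors adjusted the values for batch. T cell identity was high in both genotypes: Cd3e, a chain of the CD3 complex, read 12.87 ± 0.05 on the wildtype arrays (log2, mean ± SD, n = 5) and 12.85 ± 0.14 on the knockout arrays (n = 4). Zbtb16, which encodes PLZF, the factor that defines the iNKT lineage, read 10.95 ± 0.19 and 10.72 ± 0.21. Cd44, an adhesion receptor that marks mature iNKT cells, fell from 11.88 ± 0.08 to 10.64 ± 0.32 (log2 difference -1.23, adjusted p = 0.0135). Of 15 genes of iNKT and T cell identity tested by limma, 3 fell and 0 rose, or 20% called beside 11.3% of all genes. Those that fell were Cd44, Il2rb (-1.01, adjusted p = 0.0231) and Tbx21 (-1.08, adjusted p = 0.028). The mean level of this list ran from 11.22 to 11.37 on wildtype and from 11.07 to 11.15 on knockout arrays.

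Markers of other cells moved on the same arrays. Of 12 markers of double-positive thymocytes, the stage from which iNKT cells branch off, 8 rose and 0 fell, with a median difference of 1.34 (log2). Their mean level ran from 10.02 to 10.58 on wildtype and from 11.20 to 11.89 on knockout arrays. Rag1 and Cd8a, 2 of these markers, were at 11.94 and 11.76 in the mean of the wildtype arrays. Of 16 macrophage and dendritic cell markers tested, 6 rose and 0 fell, and Cd14 and Itgam lay below the filter on low values. The mean level over all 18 measured, these 2 among them, was 5.88 to 6.33 on wildtype and 6.93 to 7.58 on knockout arrays. Of 9 B cell markers 3 rose and 1 fell, with mean levels of 7.36 to 7.66 and 7.88 to 8.64. Of the platelet, neutrophil and stromal lists, with 4, 6 and 9 markers tested, 0, 0 and 1 passed by limma, and 1 of each had an unadjusted p under 0.05. Mean levels were taken over all 7, 9 and 12 markers measured, with those below the filter. They were 4.64 to 5.03 against 4.79 to 5.20 for platelets, 4.26 to 5.56 against 4.52 to 6.34 for neutrophils and 5.21 to 5.39 against 5.35 to 5.52 for stroma. Beside 11.3% of all genes, 66.7% of the double-positive, 37.5% of the macrophage and dendritic cell, 44.4% of the B cell and 11.1% of the stromal markers tested were called. Of 4 sex-linked genes, 1 passed the test. Xist, the RNA of X inactivation, rose, from 4.80 to 6.79 on wildtype and from 7.84 to 10.07 on knockout arrays (adjusted p = 0.0350). The Y-linked gene Eif2s3y did not pass (adjusted p = 0.0983), with 10.32 to 13.58 on wildtype and 7.07 to 9.84 on knockout arrays. The Y-linked Kdm5d (adjusted p = 0.225) and Uty (adjusted p = 0.277) overlapped between the groups. For all 4 genes WT1 and KO1, the arrays of batch 1, held the extremes, although the labels call the animals matched for sex. On WT1 and KO1, Xist read 4.80 and 10.07, Eif2s3y 13.58 and 7.07, Kdm5d 10.60 and 5.88, and Uty 8.86 and 4.50. The part of these markers and of sex in the integrin differences below was not tested.

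Collagen receptors come first. Itga1 encodes the alpha 1 chain, CD49a, which pairs with beta 1 to bind collagen IV and other collagens. It read 11.68, 11.12, 11.59, 11.01 and 11.59 (log2) on WT1 to WT5 and 9.65, 10.55, 9.79 and 9.78 on KO1 to KO4. All knockout arrays lay below the wildtype arrays, and KO2 lay nearest to them. Itga1 fell with a log2 difference of -1.46 (SE 0.32, 95% interval -2.18 to -0.73, adjusted p = 0.0259), -2.03 in batch 1 and -1.08 in batch 2. The call ended without any 1 of WT1, KO1, KO3 and KO4 (difference -1.41 to -1.08, adjusted p 0.0514 to 0.0883). Of the 10 integrins it had the largest fitted difference.

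The second probe set of Itga1 read 9.57, 8.86, 9.41, 9.25 and 9.08 on WT1 to WT5 and 7.09, 7.47, 7.27 and 7.87 on KO1 to KO4. On it too, the groups were apart, with a difference of -1.78 (adjusted p = 0.0139 over all probe sets). Itga2 encodes CD49b, the alpha 2 chain of a second collagen receptor with beta 1, and the DX5 antibody that marks natural killer cells binds it. Itga2 read 6.63, 6.20, 6.37, 6.53 and 6.40 on WT1 to WT5 and 5.53, 5.87, 6.04 and 5.70 on KO1 to KO4. The groups did not overlap, but these levels lie close to the median of all probe sets on these arrays, and no measure of background is at hand. Its difference was -0.64 (95% interval -1.11 to -0.17, adjusted p = 0.0776), and within batches 1 and 2 it was -1.10 and -0.33. Itga2 passed the test without WT2 (-1.10, adjusted p = 0.0457).

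The alpha E beta 7 integrin binds E-cadherin on epithelial cells. Itgae encodes its alpha chain, CD103. It read 12.64, 11.90, 12.36, 12.32 and 12.20 on WT1 to WT5 and 10.83, 11.66, 11.16 and 11.27 on KO1 to KO4. The groups did not overlap, although KO2 (11.66) came near to WT2 (11.90), the wildtype array of its own batch. Itgae fell with a difference of -1.04 (SE 0.28, 95% interval -1.68 to -0.40, adjusted p = 0.0480), -1.81 in batch 1 and -0.54 in batch 2. The call ended without WT1, WT3, WT4, WT5, KO1, KO3 or KO4 (difference -1.05 to -0.54, adjusted p 0.0782 to 0.166), and thus held only without WT2 or KO2. With no filter on low values Itgae also missed the threshold (adjusted p = 0.0526).

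The other probe set of Itgae gave a larger difference. On it the wildtype arrays WT1 to WT5 read 11.86, 11.20, 11.46, 11.66 and 11.46, and KO1 to KO4 read 9.66, 10.68, 9.81 and 9.83. KO2 again stood nearest to wildtype. The difference was -1.53 (95% interval -2.26 to -0.81, adjusted p = 0.0315 over all probe sets), with -2.20 in batch 1 and -1.09 in batch 2. In that fit over 45037 probe sets, where 2.67% of probe sets fell and 3.73% rose, the probe set used for the gene missed the threshold (adjusted p = 0.0606).

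Itgb7 encodes the beta 7 chain, which pairs with alpha E and with alpha 4, the latter pair being the receptor for the gut addressin MAdCAM-1. It read 12.14, 11.43, 11.73, 12.05 and 11.69 on WT1 to WT5 and 10.22, 11.01, 10.64 and 10.67 on KO1 to KO4. KO1 was lowest and KO2 highest of the knockout arrays, as for Itgae, and all 4 lay below wildtype. Itgb7, which has 1 probe set, fell with a difference of -1.16 (SE 0.28, 95% interval -1.80 to -0.52, adjusted p = 0.0358), -1.92 in batch 1 and -0.65 in batch 2. Without WT1, WT3, WT4, WT5, KO1, KO3 or KO4 the call ended (difference -1.16 to -0.65, adjusted p 0.0576 to 0.111). Both chains of alpha E beta 7 thus fell, while whether the 2 chains fell by different amounts was not tested.

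LFA-1, the alpha L beta 2 integrin, binds ICAM-1 and ICAM-2 and carries much of the firm adhesion of lymphocytes. Itgal, its alpha chain, read 12.17, 11.90, 12.04, 12.07 and 12.06 on WT1 to WT5 and 11.22, 11.52, 11.40 and 11.31 on KO1 to KO4. The arrays of each genotype lay close together and the groups were apart. Itgal fell with a difference of -0.67 (SE 0.16, 95% interval -1.05 to -0.30, adjusted p = 0.0354), -0.95 in batch 1 and -0.49 in batch 2. Its call held only without KO2 among the fits that left out 1 array, and in the other 8 the difference was -0.95 to -0.49 (adjusted p 0.0539 to 0.122). Its second probe set, at 8.75 to 9.16 on wildtype and 7.68 to 8.08 on knockout arrays, differed by -1.02 (adjusted p = 0.0226 over all probe sets).

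Itgb2, the beta 2 chain shared by LFA-1 and the myeloid integrins, read 11.96, 11.66, 11.81, 11.92 and 11.79 on WT1 to WT5 and 11.12, 11.39, 11.36 and 11.30 on KO1 to KO4. All knockout arrays lay below all wildtype arrays here as well. Its difference of -0.52 (95% interval -0.90 to -0.14) missed the threshold (adjusted p = 0.0762). Within batches 1 and 2 it was -0.84 and -0.31. After another quantile normalization it was -0.61 (adjusted p = 0.0365), and with all arrays scaled to 1 interquartile range -1.07 (adjusted p = 0.00895). That scaling lowers bright genes on arrays of wide interquartile range, mostly knockout arrays, so the larger value is no separate support.

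Itgb1 encodes the beta 1 chain, the partner of alpha 1, alpha 2, alpha 4, alpha 6 and alpha V. It read 10.54, 10.91, 10.64, 10.76 and 10.81 on WT1 to WT5 and 10.08, 10.09, 9.76 and 9.60 on KO1 to KO4. The groups were apart, and here KO1 and KO2 lay nearest to wildtype. Itgb1 fell with a difference of -0.84 (SE 0.21, 95% interval -1.32 to -0.37, adjusted p = 0.0371), -0.46 in batch 1 and -1.10 in batch 2. Of the 5 called genes it alone had the larger difference in batch 2. The call ended on its probe set of largest variance (-1.23, adjusted p = 0.0507) and without any 1 of WT2 to WT5, KO3 and KO4 (-0.84 to -0.46, adjusted p 0.0587 to 0.529).

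All 6 probe sets of Itgb1 had a negative difference, from -1.23 to -0.21. For 5 of them the knockout arrays lay wholly below the wildtype arrays, and the sixth, at a mean of 2.43, lay below the filter level of 4.54. Over all probe sets, 1 of the 6 passed (-0.84, adjusted p = 0.0451, means of 6.52 and 5.69), and the one used for the gene had an adjusted p of 0.0501. The array's maker marks probe sets that may bind other transcripts, and 2 of the 6 carry its mark for cross-hybridisation (x), among them the one that passed. The brighter probe set of Itgae carries the mark for probes shared by several transcripts (s).

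Itga4 went the other way on its brightest probe set. It encodes the alpha 4 chain, which pairs with beta 1 as VLA-4, a receptor for VCAM-1 and fibronectin, or with beta 7. It read 9.96, 9.99, 10.18, 9.73 and 10.08 on WT1 to WT5 and 10.71, 10.19, 10.99 and 10.98 on KO1 to KO4. The knockout arrays lay above the wildtype arrays, KO2 by less than 0.01 over WT3. The difference of 0.74 (SE 0.26, 95% interval 0.14 to 1.34) missed the threshold (adjusted p = 0.102). Within batches 1 and 2 it was 0.75 and 0.73. Without KO2 it passed (0.89, adjusted p = 0.023), and with arrays scaled to 1 interquartile range it was 0.31 (adjusted p = 0.376).

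The 5 probe sets of Itga4 did not share a direction. Their differences ran from -0.34 to 0.74, with 3 positive and 2 negative, and on the other 4 the groups overlapped. The mean over all 5 differed by 0.13 (adjusted p = 0.729).

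Itga6, the alpha 6 chain of laminin receptors, read 10.82, 10.64, 10.76, 10.50 and 10.88 on WT1 to WT5 and 10.51, 10.31, 10.80 and 10.59 on KO1 to KO4. The groups overlapped, with 3 of the 4 knockout arrays above the lowest wildtype array. Its difference was -0.17 (95% interval -0.61 to 0.28, adjusted p = 0.583), and its other probe set gave -0.12. With arrays scaled to 1 interquartile range the difference was -0.63 (adjusted p = 0.0585), so its size depends on the scaling.

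Itgav encodes the alpha V chain, whose pairs bind RGD motifs in vitronectin and, with beta 6 or beta 8, latent TGF-beta. It read 11.20, 10.99, 11.28, 10.91 and 11.11 on WT1 to WT5 and 11.24, 11.35, 11.42 and 11.35 on KO1 to KO4. Only KO1 lay within the wildtype range. The difference was 0.25 (95% interval -0.14 to 0.63, adjusted p = 0.346), 0.04 in batch 1 and 0.39 in batch 2. It had no fixed sign: the 5 probe sets ran from -0.96 to 0.38, their mean differed by -0.05, and with arrays scaled to 1 interquartile range the brightest gave -0.26. The probe set at -0.96 (adjusted p = 0.0935 over all probe sets) read 6.67, 7.55, 7.28, 7.13 and 6.82 on WT1 to WT5 and 6.41, 6.59, 5.86 and 5.92 on KO1 to KO4.

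**Figure D2:**
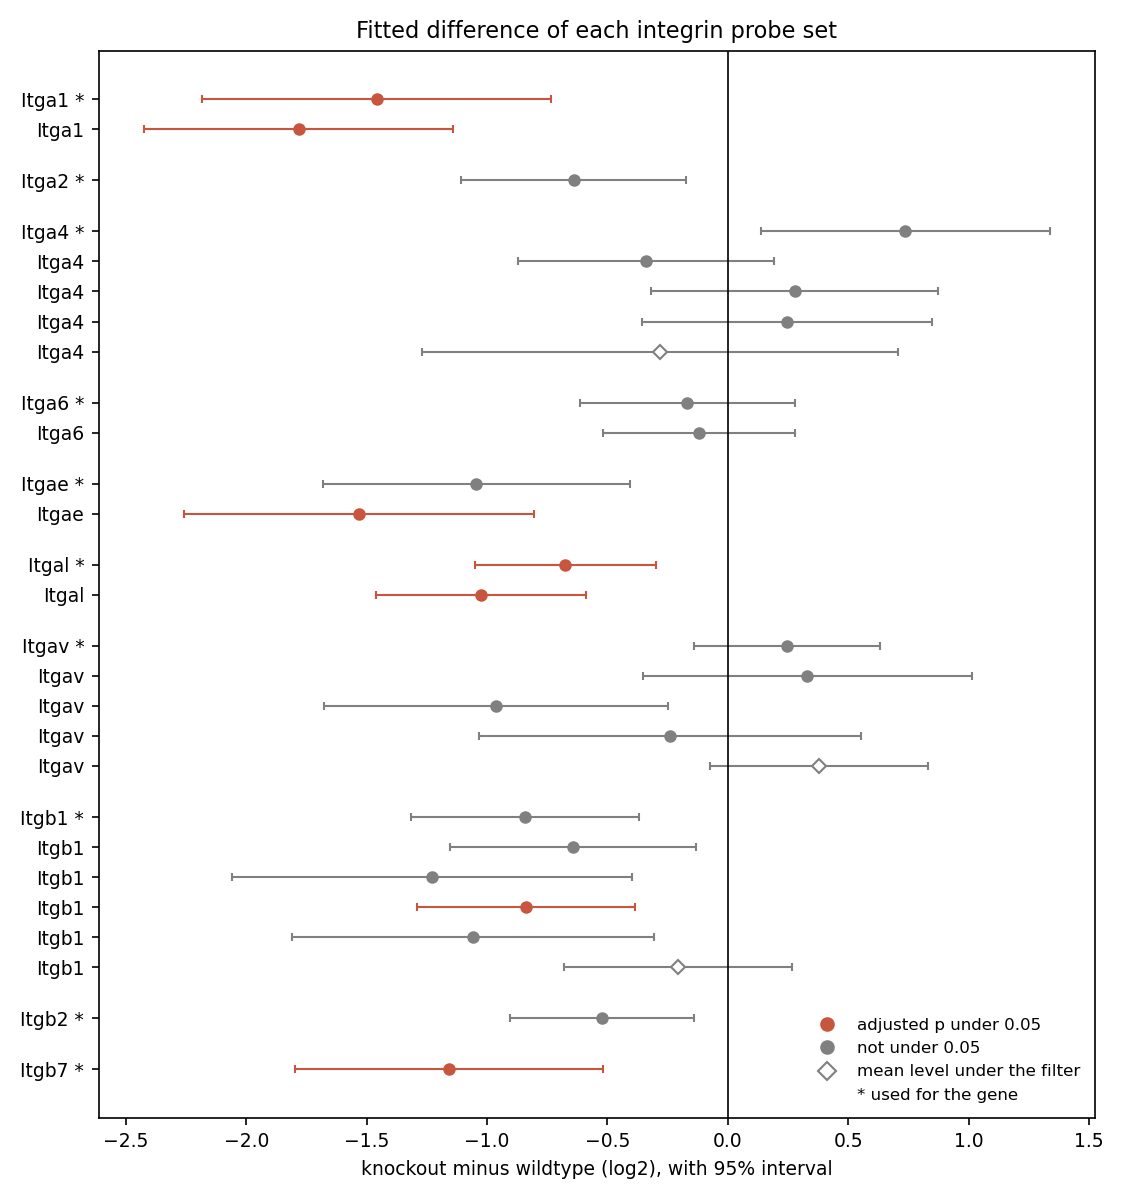
Knockout minus wildtype difference (x axis, log2, point) with its 95% interval (line) for the 27 probe sets of the 10 integrin genes, fitted over all 45037 probe sets that are not controls. Red points are the 7 probe sets with an adjusted p under 0.05, white diamonds the 3 with a mean level under the filter, and an asterisk marks the probe set used for the gene.

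Of the 27 probe sets, 24 had a mean level above the filter of 4.54, 21 had a negative difference and 7 passed the test, all 7 lower in knockout cells. Over all 45037 probe sets 6.40% passed in either direction. Every probe set of Itga1, Itgae, Itgal and Itgb1 had a negative difference, so the direction of these genes did not rest on the choice of probe set. For Itga4 and Itgav it did. Scaling the arrays to 1 interquartile range gave larger falls for Itgae (-1.60), Itgal (-1.24) and Itgb1 (-1.28), all still called. Most knockout arrays had wider interquartile ranges than the wildtype arrays, so this scaling lowers levels above the median on them, whatever the gene. Itga2, near that median, went from -0.64 to -0.60. The larger falls and kept calls after scaling are thus no separate support.

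By pairs of chains, alpha 1 beta 1 and alpha E beta 7 each had both chains lower past the threshold, with differences of -1.46 and -0.84, and of -1.04 and -1.16. For alpha L beta 2 the alpha chain passed and the beta chain did not (-0.67 and -0.52). In alpha 4 beta 7 the values were 0.74 for Itga4 and -1.16 for Itgb7, and in alpha 4 beta 1 they were 0.74 and -0.84. For alpha 6 beta 1 and alpha V beta 1, the alpha chains gave -0.17 and 0.25 beside -0.84 for Itgb1. The differences between the chains of a pair were not tested, and levels of different genes cannot be set against each other on this array.

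All 10 genes had the same sign in batch 1 and in batch 2, against 65.3% of all genes tested. The sizes differed between the batches. In batch 1 Itgb7 (-1.92) and Itgae (-1.81) had about the difference of Itga1 (-2.03), whereas in batch 2 they gave -0.65 and -0.54 beside -1.08. A test of whether the genotype difference was the same in both batches, chosen after these values were seen, gave adjusted p = 0.263 for Itgae, 0.270 for Itgb7 and 0.379 to 0.992 for the other 8 genes by limma, with unadjusted p of 0.0107 and 0.0114 for Itgae and Itgb7. Over all genes that test called 3 of 14524, and 1926 had an unadjusted p under 0.05. Batch 1 holds 1 array per genotype and batch 2 holds 1 wildtype array, so neither value has a replicate check of its own.

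**Figure D3:**
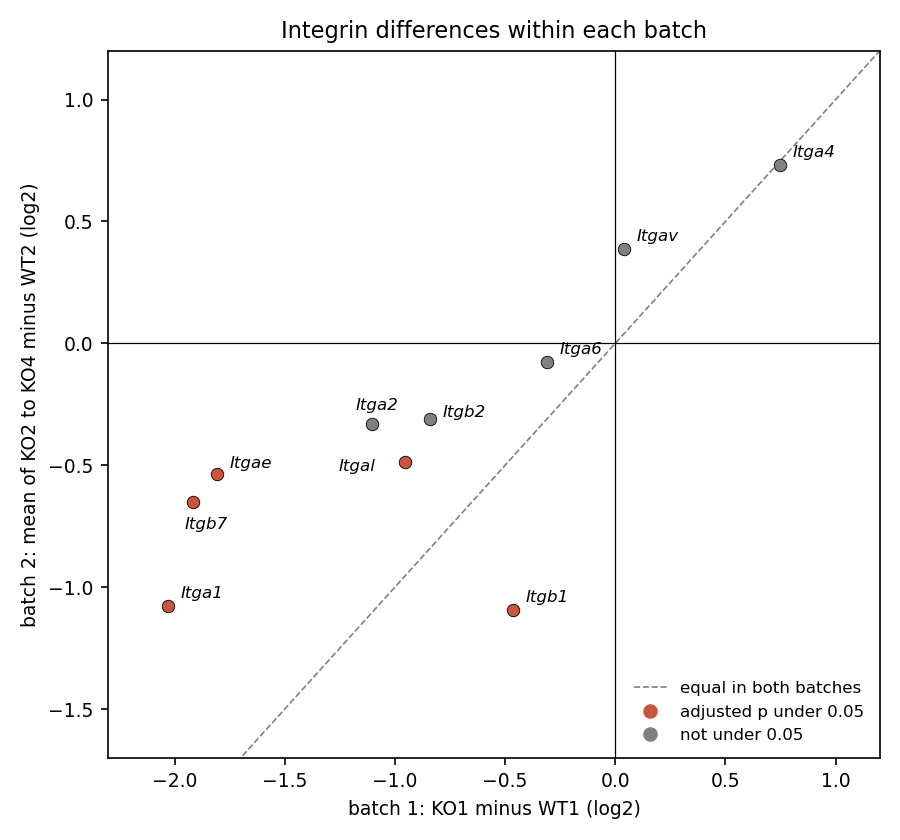
Knockout minus wildtype difference of each integrin gene within batch 1 (x axis, log2, KO1 minus WT1) and within batch 2 (y axis, log2, mean of KO2 to KO4 minus WT2), with genes of adjusted p under 0.05 in red and a dashed line where both batches are equal. All 10 genes have the same sign in both batches, Itgae and Itgb7 lie far to the left of their batch 2 values, and Itgb1 lies below the line.

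The knockout arrays did not share 1 level. Relative to the wildtype mean, the median of the 5 called integrins was -1.45 (log2) on KO1, -0.64 on KO2, -1.13 on KO3 and -1.13 on KO4. KO2 was the knockout array nearest to wildtype for Itga1, Itgae, Itgal, Itgb1, Itgb2 and Itgb7, and also for Itga4, whose brightest probe set had a positive difference. On KO2 Itgae stood at 11.66 against 10.83 to 11.27 on the other knockout arrays. Among the knockout arrays KO2 also had the lowest mean level of the double-positive (11.20) and of the macrophage and dendritic cell markers (6.93). The B cell, platelet and stromal means were lowest on KO4 and the neutrophil mean on KO3. Whether these orders and that of the integrins are linked was not tested. Without KO2, 6 integrins were called, 5 lower and 1, Itga4, higher.

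**Figure D4:**
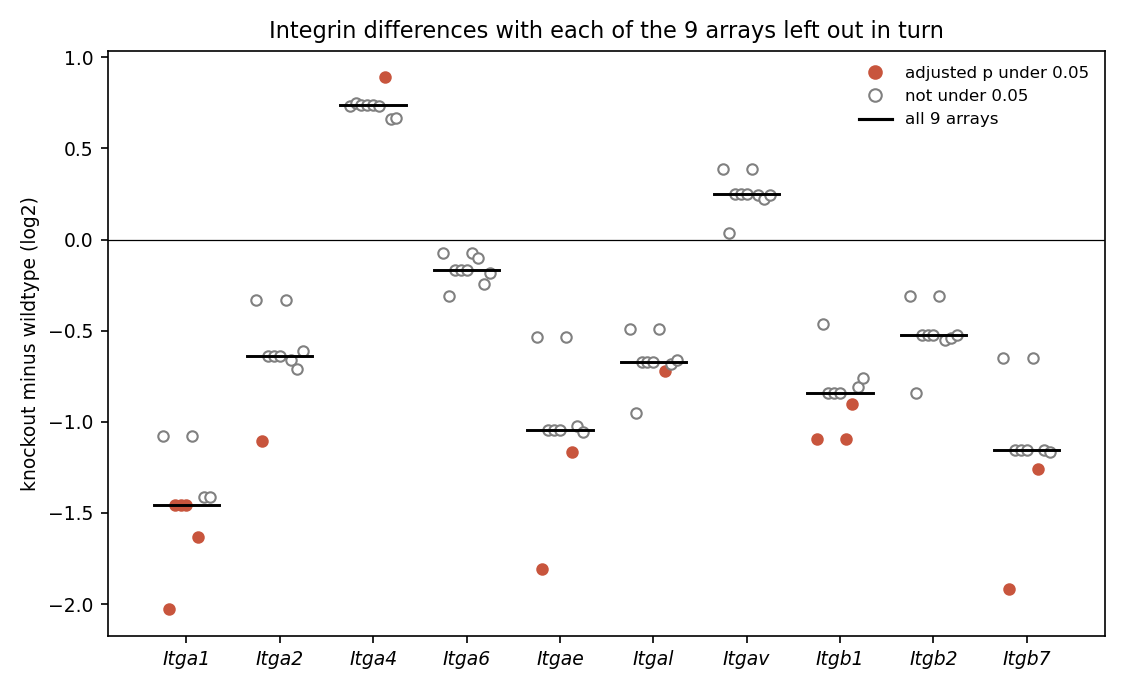
Fitted knockout minus wildtype difference (y axis, log2) of each integrin gene with each of the 9 arrays left out in turn (points, filled red where the adjusted p is under 0.05, WT1 to WT5 and then KO1 to KO4 from left to right) and with all arrays (black line). Every point lies on the same side of 0 as its line, while of the genes called with all arrays none keeps its call in all 9 fits.

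RefSeq promoter sequences (GRCm38.p6) were matched for 6 of the 10 genes by gene identifier: Itga1, Itga2, Itga4, Itgav, Itgb1 and Itgb7. Shown are the 250 bases before the start of the 3 of these genes that fell and of Itga4. The difference of Itga4 was positive on its brightest probe set but was not called, and its probe sets did not share a direction. Capitals mark matches on either strand to 4 short motifs: TGTGGT for RUNX factors, AGGTGT for T-box factors, AGGAAG for ETS factors and GGGCGG, the GC box. The regions are chr13:115101965-115102214 (minus strand) for Itga1, chr15:102231936-102232185 (minus strand) for Itgb7, chr8:128685404-128685653 (plus strand) for Itgb1 and chr2:79255176-79255425 (plus strand) for Itga4.
Itga1: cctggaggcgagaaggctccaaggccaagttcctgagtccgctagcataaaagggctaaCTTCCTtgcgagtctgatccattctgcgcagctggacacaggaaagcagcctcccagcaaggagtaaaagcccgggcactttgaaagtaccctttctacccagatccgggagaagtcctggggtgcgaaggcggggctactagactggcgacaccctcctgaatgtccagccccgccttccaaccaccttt
Itgb7: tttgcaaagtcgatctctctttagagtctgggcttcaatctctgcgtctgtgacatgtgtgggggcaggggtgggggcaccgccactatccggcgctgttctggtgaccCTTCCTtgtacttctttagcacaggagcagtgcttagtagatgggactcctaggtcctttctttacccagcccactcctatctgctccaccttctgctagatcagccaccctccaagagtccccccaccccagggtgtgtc
Itgb1: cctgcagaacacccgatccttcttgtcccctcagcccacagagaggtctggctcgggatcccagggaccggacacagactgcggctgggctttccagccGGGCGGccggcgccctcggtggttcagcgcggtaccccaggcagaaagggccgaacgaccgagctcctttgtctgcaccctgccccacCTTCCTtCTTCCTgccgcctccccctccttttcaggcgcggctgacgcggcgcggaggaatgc
Itga4: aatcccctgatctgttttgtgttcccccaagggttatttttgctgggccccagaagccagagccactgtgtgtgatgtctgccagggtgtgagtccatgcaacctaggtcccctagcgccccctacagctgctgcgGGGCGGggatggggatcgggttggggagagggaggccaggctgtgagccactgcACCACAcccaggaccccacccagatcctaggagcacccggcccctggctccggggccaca

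In these windows the ETS letters were found once in Itga1, 186 to 191 bases before the start, once in Itgb7, 136 to 141 bases before it, and at 2 adjacent places in Itgb1, 51 to 63 bases before it, in each case on the opposite strand as CTTCCT. Itga4 held no ETS match, and had the RUNX letters 55 to 60 bases before the start, on the opposite strand, and a GC box 109 to 114 bases before it. A second GC box match stood in Itgb1. The ETS letters are found in 29.5% of 32851 RefSeq promoter windows of the same length, the GC box in 32.7%, the RUNX letters in 14.0% and the T-box letters in 11.8%. Itgav also held 1 ETS match and Itga2 held none of the 4 motifs, and none of the 6 windows held the T-box letters. A match only states that the letters are there, and the factors' binding was not measured.

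The other genes of the integrin system were taken from 4 lists, drawn up with earlier results of these data known. Among 10 other integrin subunits tested, 2 fell and 0 rose, with a median difference of -0.08 (log2), and 4 more lay below the filter. That is 20% called, beside 11.3% of all genes. Itga7, a laminin-binding alpha chain best known from muscle, fell from 5.35 ± 0.10 (n = 5) to 4.58 ± 0.16 (n = 4), a difference of -0.78 (adjusted p = 0.0254). Its knockout mean lay close to the filter level of 4.54, and no measure of background is at hand. Itga3, another laminin-binding alpha chain, fell from 7.29 ± 0.04 to 6.62 ± 0.21, a difference of -0.67 (adjusted p = 0.0452). The call of Itga7 ended without WT2, WT5 or KO3 (adjusted p 0.0533 to 0.354), and that of Itga3 without any 1 array but KO2 (adjusted p 0.0734 to 0.343) or with a trended, robust prior (adjusted p = 0.0817).

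Of the other beta chains that partner alpha 6 or alpha V, 3 were tested and missed the threshold on the probe set of highest mean. Itgb4, the partner of alpha 6 in epithelia, had a difference of -0.69 (adjusted p = 0.0598), and with genes averaged over their probe sets it passed at the same difference (adjusted p = 0.0478). Itgb3, a partner of alpha V, had one of -0.43 (adjusted p = 0.342). Itgb5, another partner of alpha V, depended on the probe set: its difference was 0.13 (adjusted p = 0.694) on the brightest, 0.86 (adjusted p = 0.0395) in the mean of all and 1.53 (adjusted p = 0.00565) on that of largest variance. The brightest carries the maker's mark for cross-hybridisation (x). Itgb8, at 2.91 in wildtype and 2.95 in knockout cells, lay below the filter. So did Itgb6, a further partner of alpha V, at 5.06 in wildtype and 3.67 in knockout cells. Its wildtype mean alone lay above the filter level of 4.54. Within batches 1 and 2 Itgb6 differed by -0.56 and -2.11, and neither Itgb6 nor Itgb8 was tested.

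Among 21 integrin ligands tested, 2 rose and 1 fell, a share of 14.3% beside 11.3% of all genes, and their median difference was 0.09. The one that fell was Cdh1, E-cadherin, the ligand of alpha E beta 7. It read 10.90, 10.35, 10.48, 10.73 and 10.62 on WT1 to WT5 and 7.87, 9.21, 7.91 and 7.44 on KO1 to KO4. The groups were far apart and KO2 again lay nearest to wildtype. Its difference was -2.51 (SE 0.45, adjusted p = 0.013), -3.02 in batch 1 and -2.16 in batch 2, and the call held whichever of the 9 arrays was left out. Without the wildtype arrays of batch 3 together, the call ended (adjusted p = 0.0591).

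Col1a1, a chain of collagen I, which alpha 1 beta 1 and alpha 2 beta 1 bind, rose from 5.97 ± 0.21 to 7.68 ± 0.41 (difference 1.68, adjusted p = 0.0114), which with WT2 left out became 1.48 (adjusted p = 0.114) and was no longer called. Lamc1, the gamma chain of many laminins, rose from 6.36 ± 0.08 to 6.98 ± 0.10 (difference 0.68, adjusted p = 0.0263), and its call ended without any 1 of WT1, WT2, WT3, WT5, KO1 and KO3 (0.62 to 0.77, adjusted p 0.0528 to 0.119) or with a trended, robust prior (adjusted p = 0.0584). Col1a1 is also a fibroblast gene and stands in the stromal list, of which it is the 1 member that passed. Averaged over its probe sets, Col1a1 differed by 1.06 (adjusted p = 0.025). Col1a2, the other chain of collagen I, differed by 0.13 (adjusted p = 0.709). Icam1, a ligand of LFA-1, differed by 0.12 (adjusted p = 0.816) and Vcam1, a ligand of VLA-4, by 0.27 (adjusted p = 0.761), both with opposite signs in batch 1 (-0.80 and 1.88) and batch 2 (0.73 and -0.81). Icam1 was negative with arrays scaled to 1 interquartile range (-0.24) or quantile normalized again (-0.14). Madcam1, the gut addressin, lay below the filter, at 3.84 and 4.05.

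In the machinery that activates integrins and ties them to actin, 1 of 42 genes tested rose and 1 fell, a share of 4.76% beside 11.3% of all genes, and the median difference was 0.03. Tln1, talin, differed by 0.34 (adjusted p = 0.296), Fermt3, the kindlin of blood cells, by -0.02 (adjusted p = 0.952), and Rap1b, the small GTPase that recruits talin, by -0.03 (adjusted p = 0.899). These 3 genes, central to the activation of integrins, were picked for that role after their values were seen. The gene that fell was Rap1gap2, which switches off Rap1, from 7.90 ± 0.13 to 6.78 ± 0.20 (difference -1.09, adjusted p = 0.0119), and without WT2 its call ended (-0.88, adjusted p = 0.141). Itgb3bp, named for binding the beta 3 chain and also a kinetochore protein, CENP-R, rose from 7.90 ± 0.26 to 8.85 ± 0.20 (difference 0.98, adjusted p = 0.0357). It rested on that probe set, since the mean of all its probe sets differed by 0.08 (adjusted p = 0.732), and its call also ended without any 1 of WT2, WT4, WT5, KO3 and KO4 (0.51 to 0.98, adjusted p 0.0565 to 0.531).

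Of 18 genes of residency in tissues and of egress tested, 9 fell and 1 rose, with a median difference of -0.83. That is 55.6% called, beside 11.3% of all genes, in a list drawn up with earlier results known, and the difference in share was not tested. The members of smallest p that fell were Cxcr3 (-2.05, adjusted p = 0.00732), a chemokine receptor of inflamed tissue, Rgs1 (-1.74, adjusted p = 0.00928), which dampens chemokine receptor signals, Prdm1 (-1.50, adjusted p = 0.0138), which encodes Blimp-1, and S1pr1 (-0.92, adjusted p = 0.0272), the receptor that guides exit towards blood. Ccr7, the receptor for lymph node chemokines, rose (0.93, adjusted p = 0.0461). Genes on either side of the choice between staying and leaving are thus among those that fell, since Rgs1 and Prdm1 belong to residency programs and S1pr1 to egress. The calls of Cxcr3 and Rgs1 held in each fit that left out 1 array, though that of Rgs1 ended without the wildtype arrays of batch 3 together. Those of the other 3 ended: Prdm1 without WT2 (-1.49, adjusted p = 0.0991), S1pr1 without any 1 of WT1, WT4, KO1, KO3 and KO4 (-0.96 to -0.62, adjusted p 0.0503 to 0.0935) and Ccr7 without any single array other than WT4 or KO2 (0.64 to 1.11, p after adjustment 0.0529 to 0.485), and also with no filter, another scaling or a trended, robust prior (0.0504 to 0.0820).

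**Figure D5:**
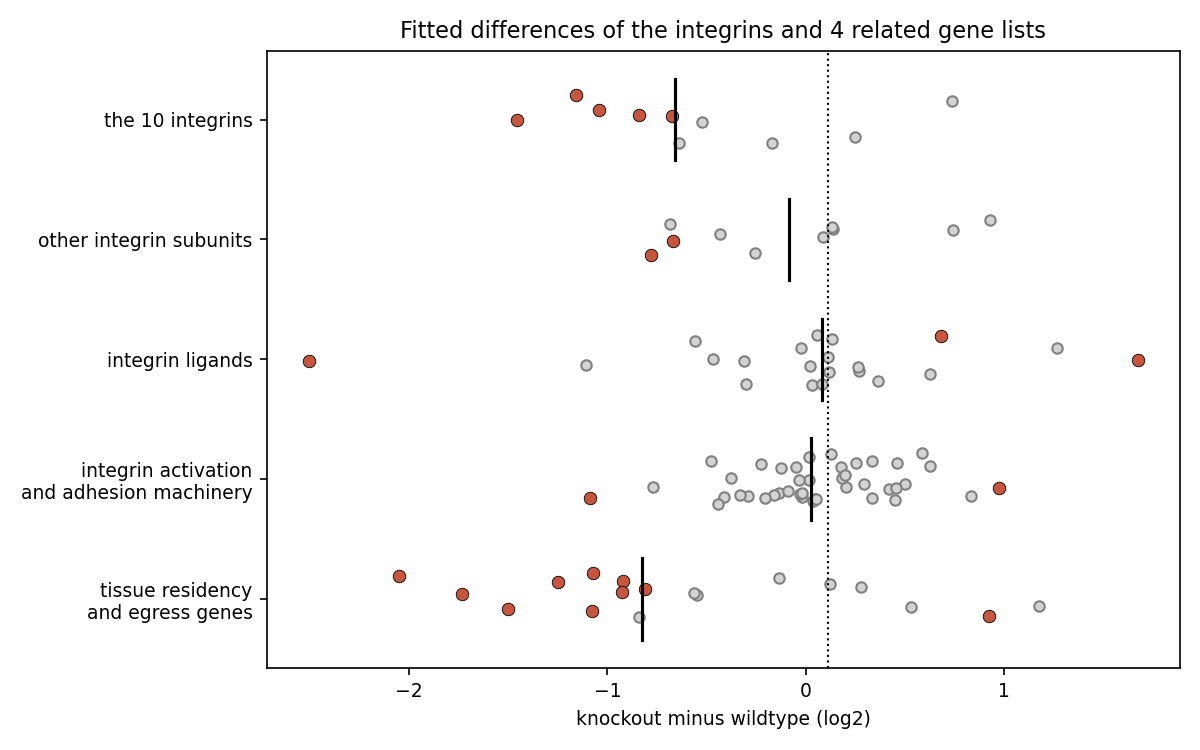
Fitted knockout minus wildtype difference (x axis, log2) of each tested gene in the set of 10 integrins and in 4 related lists (rows), red where the adjusted p is under 0.05, with the median of each row as a black bar and the median of all genes (0.11) as a dotted line. The medians of the integrins (-0.66) and of the residency and egress genes (-0.83) lie to the left, and those of the other 3 lists lie between -0.08 and 0.09.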

How the data were processed

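RNA of sorted thymic iNKT cells was amplified, labelled with biotin and hybridised to arrays, per the labels' protocols. The deposited values are log2 levels made by the authors with RMA, per the submitters' processing notes, with no version; amplification and RMA can compress differences. The platform's annotation gave 1 gene for 34945 of 45101 probe sets. For each gene the probe set of highest mean was used, and 14524 genes with a mean above 4.54, the 25th percentile over all 45101, were tested. limma (version 3.58.1, R 4.3.3) was fitted with genotype and batch as factors, two-sided, with Benjamini-Hochberg adjustment over all genes, or over 45037 probe sets without a filter. Residual degrees of freedom were 5. Since batch 3 holds no knockout array, the fitted difference rests on batches 1 and 2. The fit was tested on simulated data. Arrays give no read depth, and their number limits the precision. No 2 arrays of a group were duplicates (smallest SD of the difference 0.305).

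The members, lists, motifs and alternatives were chosen with earlier results of these data known. Named were the 10 members, the called genes of each related list (at most 4 of smallest p in each direction where over 8 were called), Itgb3, Itgb4, Itgb5, Itgb8, Icam1, Vcam1, Madcam1 and Cdh1, and Zbtb16, Cd3e and Cd44. Other genes named were chosen after their values were seen.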

Additional observations from a re-analysis of the deposited data

Results flagged for a closer look

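In 94 groups of 4 or 5 arrays, 4 had an array far from the others of its group, where chance alone gives about 5% of groups. Itga1 read 10.55 (log2) on KO2, the nearest other knockout array being at 9.79. The second probe set of Itgae read 10.68 on KO2, with the nearest at 9.83. Col1a1 read 8.30 on KO2, with the nearest at 7.53. Prdm1 read 8.83 on WT3, with the nearest wildtype array at 8.65.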

How the results depend on the processing

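Over 239 refits of the 10 integrin differences, 236 kept their sign, the 3 exceptions being Itgav with arrays scaled to 1 interquartile range, with all probe sets averaged and with the probe set of largest variance. Of these refits 168 kept their side of the threshold, 53 lost a call and 18 gained one, and 0 called genes changed sign. The count of called integrins, 5 with all arrays (where 11.3% of all genes were called), was 0 to 6 with 1 array left out. It was 8 with no batch term (43.7% of all genes), 10 with batch as a random block (69.2%) and 0 with array weights (3.68%). It was 0 at an adjusted p of 0.01 (2.31%) and 0 without the wildtype arrays of batch 3 (2.33%). Without the batch 1 arrays, a fit chosen after seeing the data, it was 1 (12.1%). In limma's fits that called 0, 8 had an unadjusted p under 0.05. For probe sets, 7 with all arrays, these counts were 1 to 9, 17, 23, 1, 0, 0 and 7, with 14 at an adjusted p of 0.1 and 11 after scaling to 1 interquartile range. For the 4 related lists, 17 with all arrays, they were 7 to 19, 44, 60, 6, 2, 1 and 10. An adjusted p of 0.1 gave 27 (20.9% of all genes), and that scaling gave 28 (14.9%). A replicate block in place of batch called 8 integrins, 16 probe sets and 29 genes of the lists, with 29.5% of all genes called. The counts without batch as a fixed factor assume values not adjusted for batch before deposit, which the sources used here do not settle, and could overstate the degrees of freedom if they were. The replicate numbers do not pair the samples: deviations of arrays with the same number correlated at -0.92, 0.09, 0.02 and 0.15, and only numbers 1 and 2 share a batch. The same scaling moved the median of all genes from 0.11 to -0.06 and the calls from 1144 higher and 490 lower to 1041 and 1118. Leaving out WT1 or KO1 keeps the difference within batch 2, and leaving out WT2 that within batch 1, where the lone arrays are assumed to vary like the others. The cause of the other changes was not tested.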
